A study of Drosophila melanogaster with 2 samples.

Results

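The genes described here are Dref and 9 genes of the cell cycle and DNA replication network that it shares with the E2F factors: PCNA, E2f1, E2f2, Dp, Cdk1, CycA, CycB, CycE and stg. They were chosen by name for their roles, by a rule that uses no peak signal, and are 10 of 13945 protein-coding genes on the 6 chromosome arms examined. The choice was made with earlier results of these data known. For each gene, every listed summit (the point the authors give as the peak of a region) in the gene body or within 2 kb of it was collected, in the dm6 genome build. Of the 3995 thresholded peaks of the study, 12 fell in these windows.

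The study mapped by ChIP-seq the chromatin recovered with CG18476, a Drosophila melanogaster protein that carried eGFP at its C-terminus and was precipitated with an anti-GFP antibody. There was 1 group of 2 libraries, biological replicates 1 and 2, both from whole embryos of pooled sexes aged 0 to 24 h that stably carried the fusion transgene. The labels name neither the promoter nor the copy number of the transgene, and an untagged strain was not analysed here. With whole embryos of all stages in 1 group, cells in which a gene is bound and cells in which it is not cannot be told apart.

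Dref encodes a BED finger factor that binds the DNA replication-related element (DRE) and activates genes of DNA replication and growth. The E2F factors act with the partner Dp at many of the same promoters, E2f1 as an activator and E2f2 as a repressor. The cyclins CycE, CycA and CycB and the kinase Cdk1 drive entry into DNA synthesis and mitosis, stg encodes the Cdc25 phosphatase that activates Cdk1, and PCNA encodes the sliding clamp of DNA polymerase.

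The values are the authors' deposited signals, in the authors' units, for peaks called per replicate and on the pooled reads. Each of the 3 region lists held 30000 regions, with signals from 14.5 in the pooled list, from 7.66 in replicate 1 and from 9.52 in replicate 2. The thresholded set was the 3995 regions of highest signal in the pooled list, so its lower bound was a pooled signal of 60.6. Read depth is unknown from these lists, and the signals were not scaled to a common depth. A region that is not listed may have any lower signal.

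Of the 10 genes, 7 had a thresholded summit in the gene body or within 2 kb: Dref, E2f1, E2f2, Dp, Cdk1, CycB and CycE. The same held for 31.3% of all protein-coding genes. PCNA, CycA and stg had none. The exact 95% interval of the share, 34.8% to 93.3%, treats the genes as independent draws, which a hand-picked list is not. Gene length bears on this count: genes with a body under 10 kb had such a summit in 27.9% of cases and longer genes in 52%. Among the 8 shorter genes of the network 5 had one, and the 2 longer ones, E2f1 and CycE, both had one. The windows of the 10 genes held 9.28 thresholded summits per 100 kb, against 3.53 per 100 kb in the windows of all protein-coding genes. Without E2f1, the longest gene, the value was 9.43. In these densities overlapping windows were merged, so long genes weigh more in the value of all genes, and gene length was not matched.

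Within 500 bp of an annotated transcription start site (TSS), 4 of the 10 genes had a thresholded summit, namely Dref, E2f1, Dp and Cdk1, against 17.7% of protein-coding genes. The interval of that share ran from 12.2% to 73.8% and included the background. A TSS of another gene was closer than any TSS of the member itself at 4 of the 12 thresholded summits. The nearest TSSs there were those of InR, Coq3, da and lncRNA:CR46056. When only summits nearest to the gene's own TSS were counted, 6 genes had one, against 17.1% of protein-coding genes, and E2f2 was the gene lost.

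**Figure D1:**
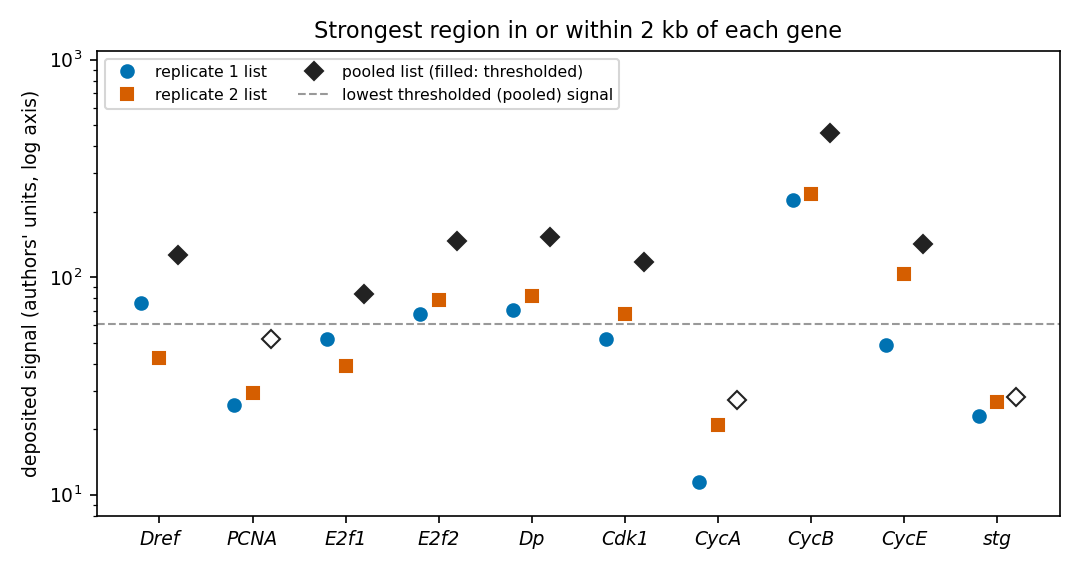
Signal of the strongest region in or within 2 kb of each gene (y axis, authors' units, log scale) in the list of replicate 1 (circles), replicate 2 (squares) and the pooled reads (diamonds, filled where thresholded). The dashed line is the lowest thresholded pooled signal, 60.6; CycB is highest in all 3 lists, and CycA, stg and PCNA lie below the line.

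The factor gene itself, Dref (FBgn0015664, chr2L:9964147-9967229, minus strand), had 1 thresholded peak, at chr2L:9967048-9967477. Its pooled signal was 127, rank 1277 of 3995, with 76.4 in replicate 1 and 42.6 in replicate 2. The summit lay at the same base in both replicates and in the pooled list, 34 bp upstream of the single Dref TSS. It also lay 50 bp upstream of the TSS of RpL13, a ribosomal protein gene read in the other direction, so the peak cannot be assigned to one of them.

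The signal of this summit leaned towards replicate 1. Replicate 2 had 0.557 of the signal of replicate 1, and only 2.85% of the 3513 thresholded peaks that were matched in both replicates had a lower ratio. In rank the peak stood at 747 of replicate 1 and at 2941 of replicate 2. The remaining 4 pooled-list regions in the Dref window had signals from 19.6 to 33.3. The 101 bp at the Dref summit are shown because they span the interval between the divergent TSSs, including the first bases of Dref, at chr2L:9967213-9967313, on the minus strand, 5′ to 3′, with ATCGAT in capitals.

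Dref summit: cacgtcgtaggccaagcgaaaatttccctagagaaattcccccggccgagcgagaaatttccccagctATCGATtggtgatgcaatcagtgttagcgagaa

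ATCGAT is the core of the DRE, TATCGATA, and its centre lay 21 bp from the summit. The whole DRE was not present in the Dref promoter window, from 250 bases before to 50 bases after the gene start.

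E2f1 (FBgn0011766, chr3R:21620304-21660871, minus strand), which encodes the activating E2F factor, had 4 thresholded summits, the most of the 10 genes, all of modest signal. The strongest, at chr3R:21641406-21641835 in an intron, had a pooled signal of 83.4, with 52 in replicate 1 and 30.3 in replicate 2. A second intronic peak, at chr3R:21627729-21628158, had 69.6, with 42.5 and 29.4. The promoter peak, at chr3R:21633097-21633526, had 65.6, with 39.8 and 28.3, and its summit was 239 bp upstream of an internal TSS. That summit lay in an E2f1 intron and also in an exon of the antisense RNA gene asRNA:CR46055.

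The fourth E2f1 peak, at chr3R:21619243-21619672, lay 846 bp past the 3′ end of E2f1. Its summit was 137 bp upstream of the TSS of InR, which encodes the insulin receptor. It had a pooled signal of 75.7, with 40.8 in replicate 1 and 39.2 in replicate 2. At all 4 summits the signal was lower in replicate 2 than in replicate 1, with ratios from 0.583 to 0.962, whereas the median ratio over all matched thresholded peaks was 1.23. At the InR summit 2 regions of replicate 2 met the overlap rule, with signals of 39.2 and 12.3, and the higher is given.

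E2f1 also had many weak regions. The pooled list held 31 summits in its window, of which 27 were not thresholded, with signals up to 46.3. That is 69.6 per 100 kb, against 25.1 per 100 kb for the windows of all protein-coding genes. E2f1 was not alone in this: the value was higher at stg (87.8) and Dref (70.6), lower at Dp (61.4), PCNA (58.5), CycB (53.9), E2f2 (46.5) and Cdk1 (36.2), and below that of all genes at CycA (18.4) and CycE (12.2). No pooled-list summit lay within 500 bp of the pair of TSSs at the upstream end of the gene. The nearest on either side were 1371 bp downstream, with a signal of 38.7, and 1681 bp upstream, with 46.3.

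**Figure D2:**
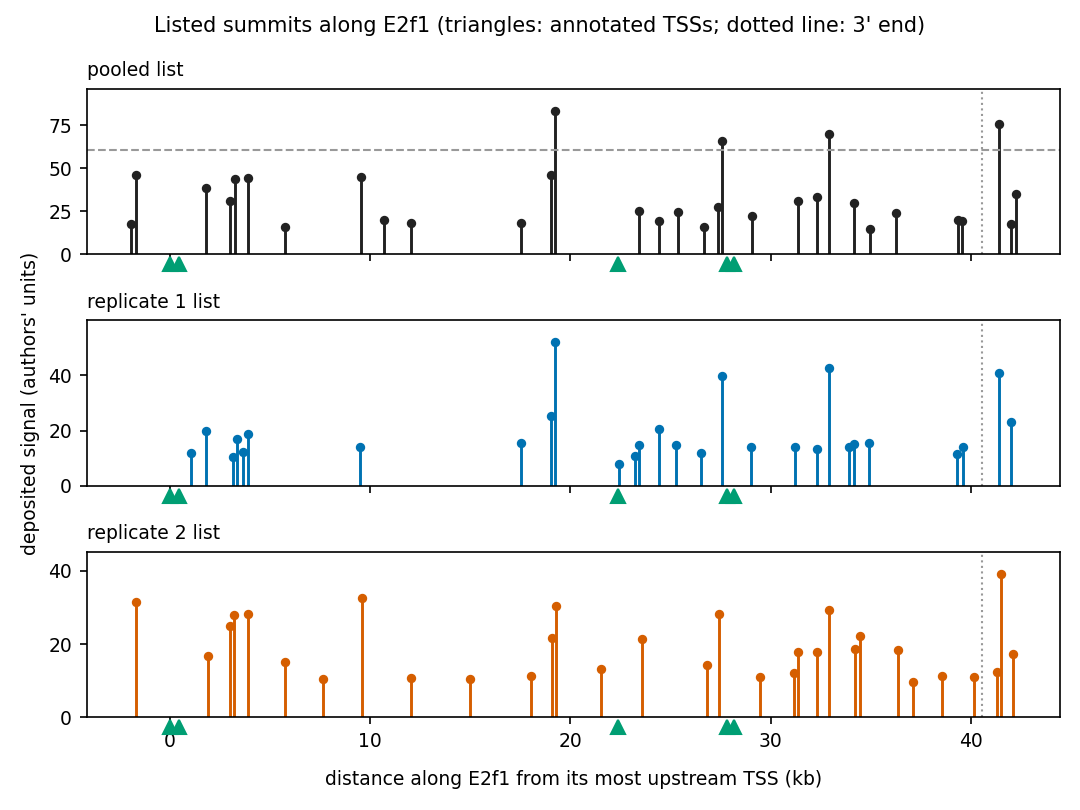
Summits listed along E2f1 in the pooled list and in each replicate (y axis, deposited signal in the authors' units; x axis, distance in kb from the most upstream TSS; triangles, annotated TSSs; dotted line, 3′ end; dashed line, lowest thresholded signal). In the pooled list 4 of the 31 summits rise above the dashed line, 3 of them within the gene and 1 past its 3′ end.

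The repressor gene E2f2 (FBgn0024371, chr2L:21154293-21156749, minus strand) had 1 thresholded peak in its window, at chr2L:21158470-21158899. It had a pooled signal of 146, with 67.8 in replicate 1 and 78.9 in replicate 2, ranks 944 and 1084. The summit was 1936 bp upstream of the E2f2 TSS. It was far closer to the divergent TSSs of Coq3, which encodes an enzyme of coenzyme Q synthesis, at 74 bp, and of Pld3, at 162 bp. At E2f2 itself a region below the threshold peaked 156 bp inside the gene from a TSS, at a pooled signal of 47, with 32.5 in replicate 1 and 15.4 in replicate 2. The ranks of that region, 3340 and 13103, were far apart.

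Dp (FBgn0011763, chr2R:13222433-13228202, plus strand), the partner of both E2F factors, had 2 thresholded peaks. Both summits lay in a Dp intron on either side of the second of its 3 TSSs. The stronger, at chr2R:13223797-13224226, lay 421 bp downstream of that TSS and had a pooled signal of 153, with 70.9 in replicate 1 and 82.1 in replicate 2. The weaker, at chr2R:13223186-13223615, lay 190 bp upstream of it and had 101, with 43.2 and 59.2. The TSS of lncRNA:CR43918 was 450 bp from the stronger summit. At the most upstream Dp TSS a region below the threshold, rank 4741, had a pooled signal of 53.1, and its summit lay 39 bp before that TSS, in the 5′ UTR of Fsn. The stronger Dp summit had the highest signal of the 5 thresholded promoter summits of the network, whose median was 118, against 104 over all thresholded promoter summits.

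Cdk1 (FBgn0004106, chr2L:10384739-10386262, minus strand), the mitotic kinase gene, had 2 thresholded peaks and no weaker region in the pooled list. The promoter peak, at chr2L:10386228-10386657, had a pooled signal of 118, with 51.8 in replicate 1 and 68 in replicate 2. Its summit was 181 bp upstream of the Cdk1 TSS and 219 bp upstream of the divergent TSS of mRpS7, a mitochondrial ribosomal protein gene. The other, at chr2L:10387741-10388170, had 91.1, with 41.1 and 52.5. It lay 1694 bp upstream of Cdk1 but 149 bp upstream of the TSS of da, which encodes the bHLH factor Daughterless.

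CycE (FBgn0010382, chr2L:15727581-15748150, minus strand), the cyclin that acts with Cdk2 at the start of DNA synthesis, had 1 thresholded peak, at chr2L:15746916-15747345 in an intron. The pooled signal was 142, with 48.8 in replicate 1 and 103 in replicate 2. The ratio of replicate 2 to replicate 1, 2.12, was the highest of the 12 summits, and 6.69% of all matched thresholded peaks had a higher one. The summit lay 521 bp upstream of the middle of 3 TSSs, just outside the promoter distance of 500 bp. In replicate 2 alone it was at 498 bp and in replicate 1 at 561 bp, so the replicates fell on different sides of that limit.

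CycB (FBgn0000405, chr2R:22803521-22806948, minus strand), a mitotic cyclin gene, stood beside the strongest peak of the whole network. That peak, at chr2R:22802805-22803115, had a pooled signal of 462, rank 95 of all thresholded peaks. It had 226 in replicate 1 and 241 in replicate 2, ranks 77 and 107, a ratio of 1.07. Its summit lay outside any gene, 558 bp past the 3′ end of CycB and 783 bp past the 3′ end of blw, which encodes a subunit of ATP synthase and is read towards CycB. The nearest TSS was that of CycB, 3340 bp away. The CycB promoter itself had a pooled-list region of signal 17.2 only, rank 23272 of 30000.

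The summit windows of Cdk1, CycE and the E2f1 promoter peak are shown as examples of thresholded sites of the network that held neither the DRE nor the E2F motif. Each is 101 bases, on the minus strand, 5′ to 3′, with the summit base in capitals. They lie at chr2L:10386393-10386493, chr2L:15747081-15747181 and chr3R:21633262-21633362.

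Cdk1 summit: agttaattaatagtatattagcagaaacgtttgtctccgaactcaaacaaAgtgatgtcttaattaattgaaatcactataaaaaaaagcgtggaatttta
CycE summit: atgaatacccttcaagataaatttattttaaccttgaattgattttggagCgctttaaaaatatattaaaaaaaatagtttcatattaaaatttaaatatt
E2f1 summit: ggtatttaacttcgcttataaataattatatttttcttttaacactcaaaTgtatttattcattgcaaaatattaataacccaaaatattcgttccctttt

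All 3 windows were rich in A and T. The G+C content of the central 51 bp was 31.4% at Cdk1, 19.6% at CycE and 15.7% at the E2f1 promoter summit. Over the 12 thresholded summits the median was 25.5%, against a median of 31.4% over all 3995, with quartiles of 25.5% and 39.2%. The Dref summit, at 54.9%, and the summit at InR, at 52.9%, stood apart from the other 10, which had at most 31.4%.

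PCNA, CycA and stg had listed regions below the threshold only. PCNA (FBgn0005655, chr2R:20261754-20262883, minus strand) came closest, with a region at chr2R:20262699-20263128 with the summit 31 bp before its upstream TSS. The pooled signal was 51.8, rank 4910. In replicate 1 it was 25.7, and the summit lay 59 bp downstream of that TSS, in the 5′ UTR. In replicate 2 it was 29.3, and the summit lay 147 bp upstream of it, in coding sequence of plu. For comparison, the weakest thresholded summit of the network, at E2f1, had 65.6 and rank 3582. A weaker region in the PCNA window, with a pooled signal of 34.2, had its summit 57 bp from the TSS of the ribosomal protein gene RpS18.

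At CycA (FBgn0000404, chr3L:11826719-11833578, minus strand), the other mitotic cyclin gene, the strongest region peaked 22 bp before the single TSS. Its pooled signal was 27.1, rank 11677. Replicate 2 listed a region 337 bp upstream with 20.8, and replicate 1 listed none within 500 bp of the TSS. At stg (FBgn0003525, chr3R:29251826-29255800, minus strand) 7 pooled-list regions had signals from 14.8 to 28. The strongest summit near stg differed between the lists. It had 28 in the pooled list, 5489 bp downstream of the nearest stg TSS, 23 in replicate 1, 3880 bp downstream, and 26.8 in replicate 2, 3597 bp downstream. No region within 500 bp of a stg TSS was listed in replicate 2.

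**Figure D3:**
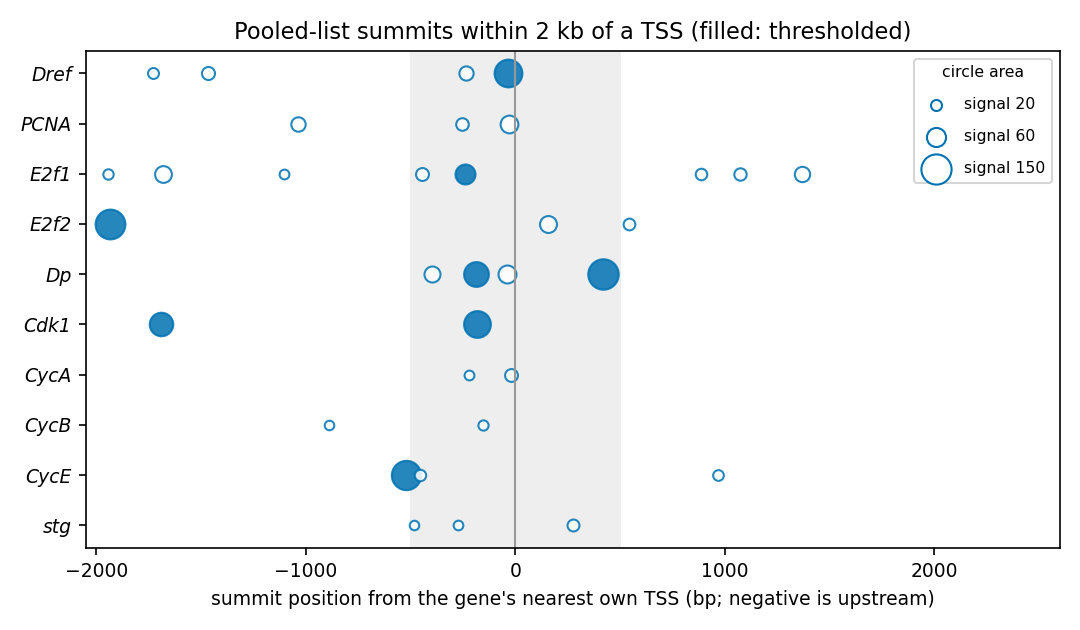
Summits of the pooled list within 2 kb of each gene's nearest own TSS (x axis, bp, negative upstream; circle area, signal in the authors' units; filled circles, thresholded; grey band, 500 bp on each side). The thresholded summits of CycB, 3340 bp from a TSS, and 3 of the 4 of E2f1 lie outside the range shown; PCNA, CycA and stg have open circles only.

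Without regard to the threshold, all 10 genes had a pooled-list summit within 500 bp of a TSS, against 50.1% of protein-coding genes. In the list of replicate 1 it was 9 of 10, without CycA, against 51.7%. In that of replicate 2 it was 9 of 10, without stg, against 47.7%. These lists include background regions by design, so a listed region is not a call.

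All 12 thresholded summits of the network had a matched region in the full list of each replicate. A match required an overlap of at least 0.5 of both lengths. This leaves out narrow thresholded peaks: of the 3995, 3513 were matched in both replicates, whereas 3988 overlapped a region of both by at least 1 bp. Among the 3995 strongest regions of each replicate, 12 were matched in replicate 1 and 9 in replicate 2. The same count over all thresholded peaks is not given here, so these 2 counts have no background beside them. The thresholded set was derived from lists that include the replicates', so these matches are a description. The 3 not matched in replicate 2 were those within E2f1. The ratio of replicate 2 to replicate 1 ran from 0.557 at Dref to 2.12 at CycE, with a median of 1.11. It was below 1 at 5 of the 12 summits, Dref and the 4 of E2f1, and over all matched thresholded peaks it was below 1 in 26.8%.

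**Figure D4:**
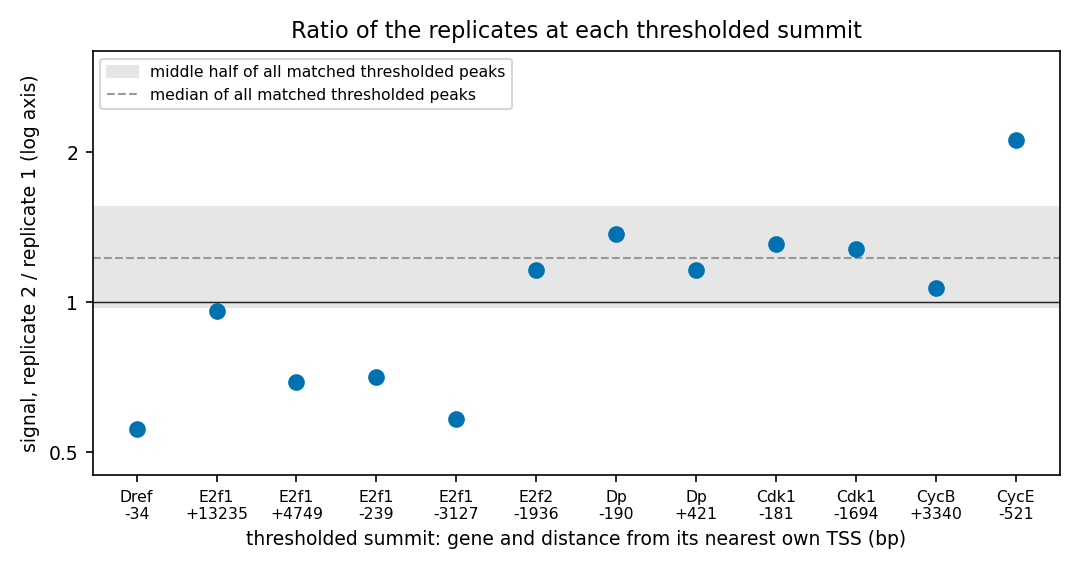
Signal in replicate 2 divided by that in replicate 1 (y axis, log scale) at each of the 12 thresholded summits, named by gene and by distance in bp from the nearest own TSS. The band runs between the quartiles of all 3513 matched thresholded peaks, 0.98 and 1.55, and the dashed line is their median, 1.23; Dref and the 4 E2f1 summits lie below the band, one of them just below it at 0.962, and CycE lies above it.

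The promoters were searched for the sites of Dref and of the E2F factors. The DRE, TATCGATA, was present in the promoter windows of 2 of the 10 genes, PCNA and CycA, against 9.36% of protein-coding genes. The E2F motif, searched on both strands as TTTCCCGC, TTTCGCGC, TTTGCCGC or TTTGGCGC, was present at 1 of the 10, stg, against 6.43%. None of the 10 had both. None of the 12 thresholded summit windows of 101 bp held a DRE or an E2F motif, and of all 3995 such windows 1.38% held a DRE and 1.25% an E2F motif. With a window of 500 bases to each side of every TSS, the E2F motif was also present at CycB and CycE, so 3 of the 10 genes had it, against 21.4% of protein-coding genes.

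At PCNA the centre of the DRE lay 23 bp upstream of the gene start and 8 bp from the pooled-list summit of the region below the threshold. The replicates did not share that position: the summit was 59 bp downstream of the gene start in replicate 1 and 147 bp upstream in replicate 2. At CycA the DRE lay 7 bp upstream of the start and 15 bp from the pooled-list summit. That pooled region had no matched region in either replicate, and the nearest summit of replicate 2 was 337 bp upstream of the start. At stg the E2F motif lay 9 bp upstream of the start and 264 bp from the nearest pooled-list summit. The 250 bases before the starts of CycA (chr3L:11833579-11833828) and stg (chr3R:29255801-29256050) are shown because they carry these sites. They are given on the minus strand, 5′ to 3′, with the DRE of CycA and the E2F motif of stg, in reverse, in capitals.

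CycA promoter: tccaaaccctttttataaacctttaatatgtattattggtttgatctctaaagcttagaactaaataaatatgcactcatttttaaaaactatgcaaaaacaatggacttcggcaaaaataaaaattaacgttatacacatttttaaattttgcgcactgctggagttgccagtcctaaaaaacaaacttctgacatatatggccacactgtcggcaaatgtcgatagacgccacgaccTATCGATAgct
stg promoter: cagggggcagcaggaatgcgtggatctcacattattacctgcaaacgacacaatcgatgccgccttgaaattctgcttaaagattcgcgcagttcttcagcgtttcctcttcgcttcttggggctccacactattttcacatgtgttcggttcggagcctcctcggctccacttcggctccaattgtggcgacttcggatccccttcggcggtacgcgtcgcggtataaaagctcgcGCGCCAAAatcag

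The core ATCGAT, added to the search after the Dref sequence was seen, was present in 5 of the 10 promoter windows, those of Dref, PCNA, CycA, CycB and stg. It was present in 23.3% of all promoter windows. It overlaps every DRE. CycB had 3 copies, the closest of them 339 bp from a pooled-list summit. A motif match gives letters and not occupancy.

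A wider list of 96 genes of the same processes was described by promoter peaks, that is, thresholded summits within 500 bp of a TSS. Of the 96 genes, 22 had one (22.9%, exact 95% interval 15% to 32.6%), against 17.7% of all protein-coding genes. These 22 genes shared 21 summits, and at 8 of the genes the TSS of another gene was closer. Their signals ran from 60.7 to 221 with a median of 89.4, against a median of 104 over all thresholded promoter peaks. In the upper 1997 thresholded peaks the list had 10 genes, 10.4%, against 10.2% of all protein-coding genes.

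Mitosis genes had a promoter peak in 9 of 20 cases (45%, interval 23.1% to 68.5%), the highest share of the groups, which were chosen with results of these data known and were not tested. These were Bub1, Bub3 and BubR1 of the spindle checkpoint, SMC2 and barr, which encode condensin subunits, the kinase gene aurA, Incenp and pav, which act at the midzone, and the centromere gene Cenp-C. The highest signals were 131 at Bub3 (45.2 in replicate 1 and 82.1 in replicate 2), whose summit was closer to the TSS of the condensin gene Cap-D2, 122 at SMC2 (60.3 and 58.4) and 113 at barr (50.1 and 64.6). The lowest, at Bub1, was 60.7 (19.5 and 36.8), just inside the threshold. Incenp had 79.9, with a wide gap between 19.2 in replicate 1 and 66.1 in replicate 2. At aurA it was 103 (62.1 and 48.1), at Cenp-C 87.8 (40.5 and 41.7), at pav 68.9 (25.7 and 44.5) and at BubR1 66.2 (37.1 and 28.9). At Incenp and Bub1 the TSS of another gene, Br140 and Nin, was closer. In the strongest 3995 regions of replicate 1 alone 7 of the 20 had one, against 18.6% of all protein-coding genes. These included polo, which is not among the genes named above, and left out Incenp, Bub1 and pav. In replicate 2 alone it was 8, without BubR1, against 17%. In the upper 1997 thresholded peaks it was 4, against 10.2%.

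Genes of DNA synthesis had a promoter peak in 5 of 21 cases (23.8%, interval 8.22% to 47.2%). The interval included the 17.7% of all protein-coding genes. RnrS, a ribonucleotide reductase subunit gene and the highest of the wider list, had 221 and 121 in replicate 2. The region of replicate 1 there had 97.3, but at 430 bp it was too wide to meet the overlap rule with a thresholded peak of 214 bp. PolD2, a DNA polymerase subunit gene, had 156 (71 and 82.2), dUTPase had 101 (45.6 and 50.5), and Prim1, a primase gene, had 75.8 (30.7 and 47.5). At Prim1 the TSS of another gene, CG7083, was closer. RPA1, which encodes a single-strand DNA binding subunit, and Mcm2 shared 1 summit with a signal of 98.9 (51.1 and 51.4).

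Origin licensing and helicase genes had one in 4 of 23 cases (17.4%, interval 4.95% to 38.8%), against 17.7% of all protein-coding genes. Besides Mcm2, which encodes a subunit of the replicative helicase, these were dpa, which encodes another subunit, with 156 (70.6 and 90.8), the licensing factor gene dup with 86.4 (45.7 and 41.7) and the kinase gene Cdc7 with 68.8 (44.4 and 26.5). At dup the TSS of another gene, SRPK, was closer. The genes of the origin recognition complex, Orc1, Orc2, Orc3, Orc4, Orc5 and Orc6, had no promoter peak, against 17.7% of all protein-coding genes with one. So few genes cannot show a share below that background, and they were not tested. Without regard to the threshold, Orc1, Orc3 and Orc4 had a pooled-list summit within 500 bp of a TSS, and Orc2, Orc5 and Orc6 had none.

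In the remaining groups the intervals of the share with a promoter peak included the 17.7% of all protein-coding genes. The interval ran from 1.3% to 33.1% for cyclins, kinases and regulators and from 2.81% to 60% for the E2F, Rb and dREAM group. Cyclins, kinases and regulators had one in 2 of 19 cases (10.5%), fzr, an activator of the anaphase-promoting complex, with 91 (50.9 and 41.3) and the Cdk inhibitor gene dap with 66.6 (25.8 and 41.1). The E2F, Rb and dREAM group had one in 2 of 9 cases (22.2%), mip130 with 66.4 (33 and 37.5) and l(3)mbt with 66.8 (28.8 and 41.7), and at both the TSS of another gene, Edem1 or CG5934, was closer. Of 4 Dref partner genes, Trf2, Iswi, E(bx) and Nurf-38, 0 had one, which allows a share of up to 60.2%.

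**Figure D5:**
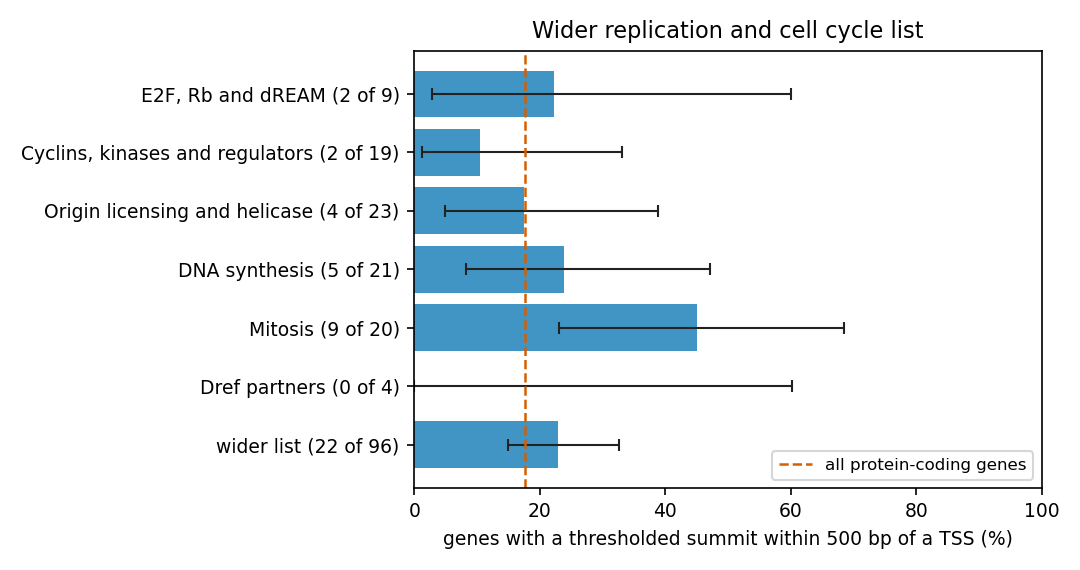
Share of genes with a thresholded summit within 500 bp of a TSS (x axis, percent) in each group of the wider list, with exact 95% binomial intervals and the counts beside the group names. The dashed line is the share over all protein-coding genes, 17.7%. The mitosis group is at 45% with an interval that starts at 23.1%, and the intervals of the other groups and of the whole list include the line. The intervals treat hand-picked genes as independent draws. The groups were chosen with results of these data known, so the place of an interval beside the line is no test.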

How the data were processed

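The dm6 peak lists deposited by the authors were used and the dm3 lists were not. Lists of peaks and background were made per replicate and on both replicates, with a further file that also went into the control-normalized tracks, and the IDR-thresholded set was derived from those 3 lists, per the README texts of the deposit. No label or header names the aligner, peak caller or IDR cutoff. The deposited signal is the authors' own value. The deposited -log10 q-value was read but used for no count.

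Genes and TSSs came from Ensembl release 115 (BDGP6, which shares the dm6 coordinates) on 6 arms, and sequences from RefSeq's copy of that assembly. Positions count from 1. Replicate matches needed an overlap of 0.5 of each region and took the highest signal. Counts stand beside those over all protein-coding genes, with exact binomial intervals (Clopper-Pearson) that cover counting error only and no test, since 1 group of 2 libraries allows none. The scripts were tested on simulated data. Python 3.11.15, NumPy 2.4.6, pandas 2.3.3, SciPy 1.17.1 and Matplotlib 3.10.9 were used.

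The members and lists were chosen with earlier results of these data known. Named by rule were the members, wider-list genes with a promoter peak and the gene with the TSS nearest to each thresholded summit. Other neighbours and genes were named after their values were seen.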

Additional observations from a re-analysis of the deposited data

How the results depend on the processing

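The count of 7 genes with a thresholded summit in or within 2 kb was 6 to 8 in the upper 1997 peaks, in either replicate's own 3995 strongest regions, at peak midpoints and with flanks of 1 kb or 5 kb, where 19.4% to 44.6% of protein-coding genes had one. It was 3 (E2f1, Dp and CycE) in the gene body alone, where 10.4% of protein-coding genes had one. It was 10 with all regions of the pooled list, where 79.4% had one. Genes with a promoter peak numbered 3 to 5 in the upper 1997 peaks, in either replicate, at midpoints and at promoter distances of 250 and 1000 bp. In those settings 10.2% to 20.4% of protein-coding genes had one. With all regions of the pooled list the count was 10, where 50.1% of protein-coding genes had one. Replicate 1 alone added E2f2, and replicate 2 alone lost E2f1 and added CycE. The wider list of 96 had 10 genes in the upper 1997 peaks, against 10.2% of protein-coding genes. It had 71 with all pooled-list regions, against 50.1%, and 18 to 25 otherwise, against 13.9% to 20.4%. The E2F motif was at 3 of the 10 genes (CycB, CycE and stg) within 500 bases of any TSS, where 21.4% of protein-coding genes had it. The median of the strongest signals, 122 in the pooled list, was 51.9 in replicate 1 and 55.3 in replicate 2, whose signals are on smaller scales. Counting only summits nearest to the own TSS, matching by most overlap, and matching all peaks by 1 bp, were chosen after the data were seen. No paired analysis was possible because there was 1 group. Unknown depth limits every value, and with 2 libraries no error can be given beyond the values of both.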

Other observations

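Over all protein-coding genes, those with a DRE in the promoter window had a thresholded promoter peak in 370 of 1305 cases (28.4%), against 2098 of 12640 (16.6%) of those without one. With an E2F motif the counts were 179 of 896 (20%), against 2289 of 13049 (17.5%) without. In the wider list of 96 genes, 22 had a DRE in the promoter window, against 9.36% of protein-coding genes. Of these 22, 3 (dUTPase, BubR1 and Bub3) had a promoter peak, against 22.9% of the whole list. The higher share with a DRE over all protein-coding genes was thus not seen among these few genes. An E2F motif was present at 21 genes of the list, against 6.43% of protein-coding genes. A promoter peak was present at 4 of the 21 (Mcm2, Cdc7, RnrS and SMC2), against the same 22.9% of the whole list. Of the 21 genes with an E2F motif, 13 were origin licensing and helicase genes. These values were looked at after the data were seen and were not tested.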
